A study of Mus musculus with 6 samples.

Results

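The respiratory chain genes of the nuclear genome were examined in livers of insulin-resistant (IR) mice given insulin or its vehicle. The genes were taken by name from the count table: every row whose symbol began with Nduf, Uqc, Atp5 or Cox followed by a digit from 4 to 8, and the succinate dehydrogenase genes Sdha, Sdhb, Sdhc and Sdhd, with 9 rows named as pseudogenes (-ps) left out. This rule uses no measured value. It took 101 of 54532 rows, of which 36 encode subunits of complex I, 4 of complex II, 8 of complex III, 20 of complex IV and 17 of complex V (ATP synthase), while 11 encode assembly factors and 5 are only named like a subunit. After a filter on low counts, 92 of the 101 were among the 13377 genes tested: all of complexes I, II and III and of the assembly factors, 13 of complex IV, 16 of complex V and 4 of the last group.

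All 6 mice were male C57BL/6J animals fed a high-fat diet (HFD) for 6 weeks from the age of 8 weeks and then fasted for 16 h. Of these, 3 received insulin intraperitoneally (0.75 units per kg body weight; group IR_Ins, here "insulin") and 3 received bovine serum albumin, the carrier of the insulin (group IR_BSA, here "vehicle"), and whole liver was taken after 6 h. Both groups carry the diet-induced IR state, which cannot be read from the counts themselves. Comparing the groups asks which transcripts still respond to insulin in this state, and mice on chow were not analysed here.

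The oxidative phosphorylation system of the inner mitochondrial membrane turns the energy of nutrients into ATP. Complex I takes electrons from NADH and complex II takes them from succinate, ubiquinone carries them to complex III, cytochrome c carries them on to complex IV, and complex IV passes them to oxygen, while the proton gradient so built drives complex V. Mitochondrial DNA encodes some subunits of complexes I, III, IV and V, and the nucleus encodes the rest together with all of complex II. In liver these complexes serve fatty acid oxidation and supply ATP for the synthesis of glucose and urea.

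The libraries held 18449986 to 21827619 read counts. The 3 insulin libraries and that of vehicle mouse 1 resembled one another, and those of vehicle mice 2 and 3 stood apart. In vehicle 2, 16470 genes had a count, against 18389 to 18874 in the others, and 33.4% of all genes tested lay more than 2-fold from the mean of the insulin libraries. In vehicle 3 that share was 11.1%, and in vehicle 1 it was 1.96%. Over all genes tested, the departures of vehicle 2 followed GC content (Spearman's rho −0.68 across 13367 genes, which are not independent replicates). Levels are given as CPM, read counts scaled to a common library size. Defining hepatocyte genes were abundant in every library (8 genes, 78252 to 164985 CPM in sum for the vehicle mice and 66800 to 81700 for the insulin mice), while 8 muscle genes were each under 1 CPM. Erythroid genes were unevenly present: 7 genes summed to 627, 1588 and 413 CPM in vehicle mice 1, 2 and 3 and to 343, 478 and 312 CPM in the insulin mice. The part of blood content in the results below was not tested. Since whole liver was sequenced, fewer cells of a type and less RNA per cell cannot be told apart.

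Within the liver the subunits differed widely in level. Levels of different genes are set side by side as CPM per kilobase of the principal transcript, averaged over the 6 libraries. Ndufa4, a subunit of complex IV despite its name, led with 561, followed by Atp5b, the catalytic β subunit of ATP synthase, with 503, Cox4i1 with 471, Cox7c with 470 and Atp5g3, a gene of the c ring, with 445. The order depends on the libraries: in the insulin mice alone Ndufa4 had 512, Cox6a1 had 495, Atp5b had 483 and Cox7c had 359. The median was 77.1 over complex I, 151 over complex II, 201 over complex III, 301 over the 12 subunits of complex IV outside the isoforms of other tissues, and 212 over complex V. The assembly factors, which help to build the complexes without staying in them, had a median of 12.6 and a range of 3.38 to 31.8. Complex I also had the widest range as a ratio among the complexes, from 8.66 for Ndufab1 to 218 for Ndufa2. Its ratio of 25.1 was close to the 22.7 of complex V. The low ends of both rest on long transcripts taken as principal, 3479 bases for Ndufab1 and 4715 bases for Atp5g1. Whether liver used these transcripts was not tested. Ndufab1 encodes the mitochondrial acyl carrier protein.

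**Figure D1:**
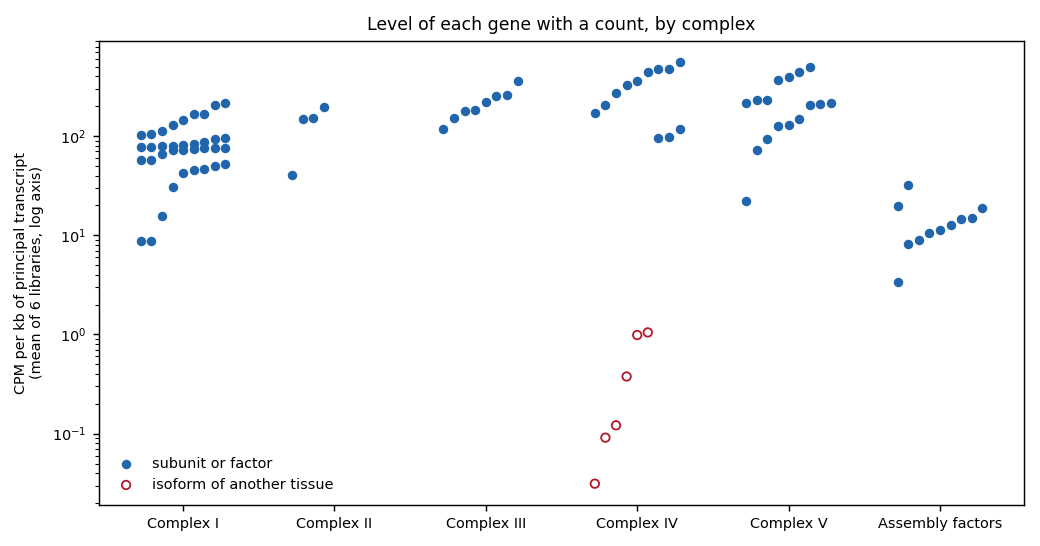
Mean level over the 6 libraries (CPM per kilobase of principal transcript, log axis) of each gene with at least 1 count and a principal transcript, grouped by complex. Filled points are subunits or assembly factors and open points are complex IV isoforms of other tissues. The assembly factors have a median of 12.6 and the ubiquitous complex IV subunits lie at or above 96.1, while the isoforms of other tissues lie near or below 1.

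Several complex IV subunits come as a ubiquitous isoform and an isoform of muscle, testis or lung. Liver used the ubiquitous ones. Cox4i1 had 390 ± 177 CPM in vehicle mice and 331 ± 8.46 CPM in insulin mice (mean ± SD, n = 3, as below), and its lung isoform Cox4i2 had at most 0.0900 CPM in any library. Cox6a1 had 223 ± 131 and 283 ± 13.0 CPM and Cox8a had 125 ± 84.5 and 176 ± 12.6 CPM, while the muscle isoforms Cox6a2 and Cox8b stayed at or below 0.180 and 0.106 CPM. Cox6b1 had 123 ± 68.4 and 134 ± 13.9 CPM against at most 0.423 CPM for the testis isoform Cox6b2. Cox7a2 had 253 ± 71.4 and 179 ± 18.9 CPM, and the muscle isoform Cox7a1 had at most 0.585 CPM. Their relative Cox7a2l, listed here as a factor for the association of complexes III and IV, had 118 ± 28.7 and 92.9 ± 5.58 CPM. Whether its protein acts so in this mouse strain was not tested. Cox7b2 and Cox8c had no count in any library. These 7 isoforms were not tested. Ndufa4l2, the hypoxia-linked relative of Ndufa4, passed the filter with 1.16, 0 and 1.91 CPM in the vehicle mice and 0.765, 1.26 and 0.784 CPM in the insulin mice, and the groups overlapped.

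No gene changed at an adjusted p under 0.05. The smallest adjusted p over all 13377 genes was 0.852 (edgeR's quasi-likelihood test with Benjamini-Hochberg adjustment), the same value holds for every member described below with an unadjusted p under 0.1, and DESeq2 and limma voom also left 0 genes. The criteria of the study ask for an unadjusted p under 0.05 and a log2 fold change of 0.35 or more in either direction. By these, 383 genes (2.86%) stood out, 249 lower with insulin (1.86%) and 134 higher (1%). Among the 92 members tested, 6 met these criteria, and all 6 were lower with insulin: Ndufb5 and Ndufb2 of complex I, Sdhb of complex II, Atp5c1 and Atp5l of complex V, and Cox6c2.

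Although single genes did not pass, the members lay to one side as a group. Of the 92, 66 had a log2 fold change below 0, against 51.4% of all genes tested, and their median was −0.22, against −0.017 over all genes. The values of the 3 insulin mice lay wholly below those of the 3 vehicle mice for 19 members, against 6.04% of all genes, and wholly above for 0 members, against 6.25%. By complex, the median log2 fold change was −0.13 for complex I, −0.28 for complex II, −0.22 for complex III, −0.22 for complex IV and −0.34 for complex V, and it was −0.016 for the assembly factors. Values were below 0 for all 7 nuclear-encoded core subunits of complex I and all 3 of complex III listed here as core (Uqcrc1, Uqcrc2 and Uqcrfs1). The same held for all 5 of the F1 head of ATP synthase, with a median of −0.33. Its membrane and stalk part had 9 of 11 below 0 and a median of −0.35, so the F1 head did not stand apart. The subunits of a complex were measured in the same libraries, so these counts are no replicates of the comparison. SEs of single members ran from 0.20 to 0.95 on the log2 scale.

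**Figure D2:**
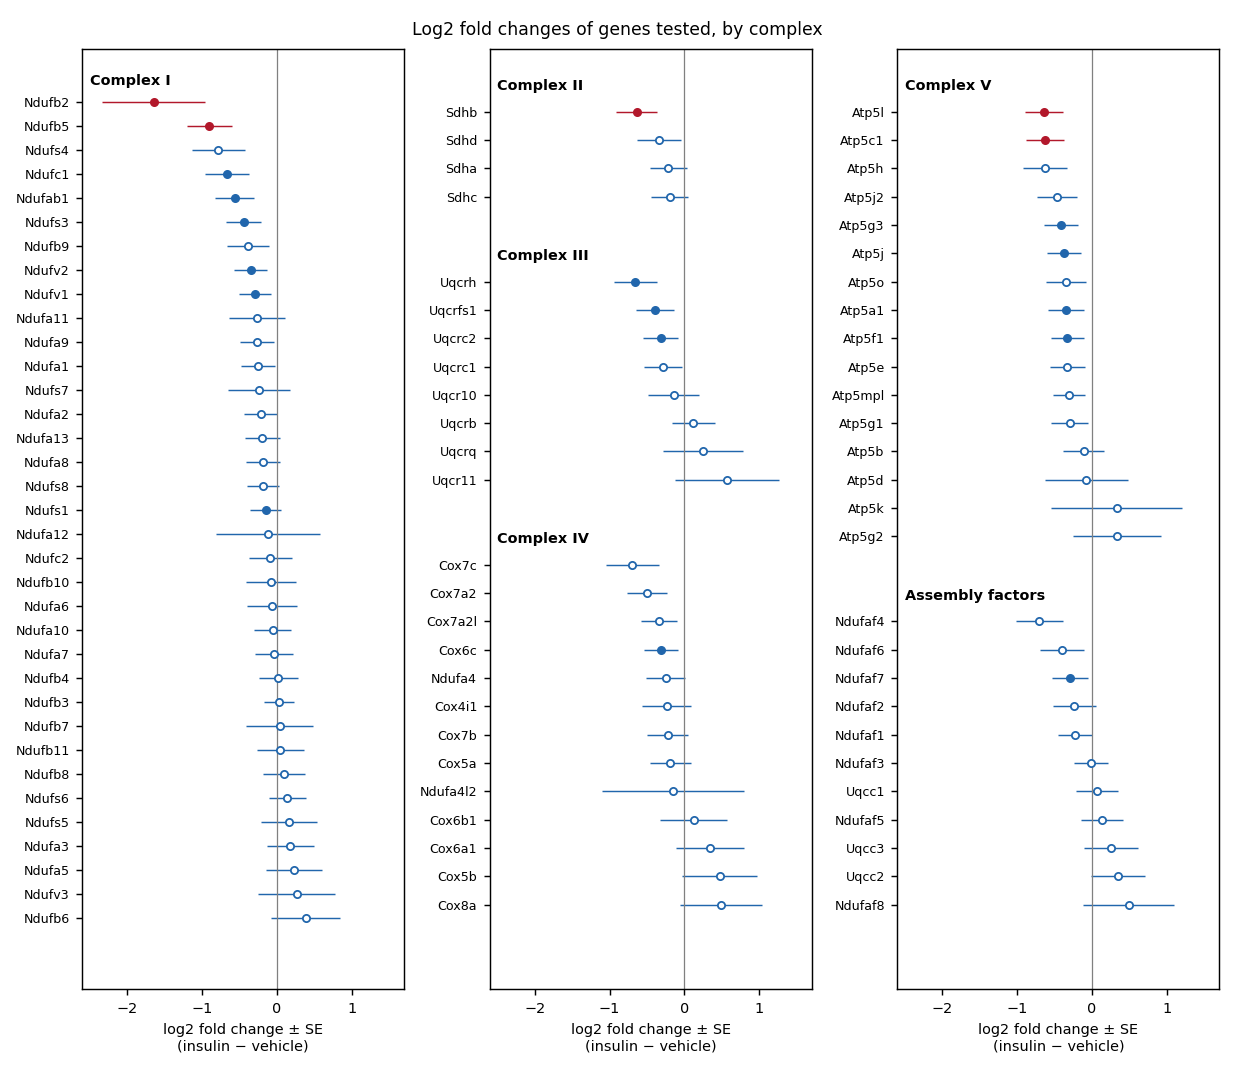
Log2 fold change (insulin minus vehicle, with its SE) of the genes tested, ordered within each complex. Red points have an unadjusted p under 0.05, filled blue points are other genes whose groups do not overlap, and open points are genes whose groups overlap. The points lie mostly left of 0 in complexes I to V, with medians from −0.13 to −0.34, and on both sides among the assembly factors.

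Vehicle mice 2 and 3 departed from the insulin mice in different ways. Vehicle 3 was high for nearly all members: 87 of 92 members lay above the mean of the insulin libraries, with a median log2 deviation of 0.47 and an interquartile range of 0.36, and only 2 of them lay more than 2-fold away. It was the highest of the 6 libraries for 58 members (63.0%), against 23.4% of all genes tested. Vehicle 2 was scattered instead, with a median of −0.017 and an interquartile range of 1.29. In it 29 members (31.5%) lay more than 2-fold away, 9 above and 20 below. This scatter was shared by all genes tested. Their interquartile range in vehicle 2 was 1.45, and 33.4% of them lay more than 2-fold away. Vehicle 2 was the highest library for 28 members (30.4%), against 35.8% of all genes, and the lowest for 43 (46.7%), against 37.4%. Vehicle 1 had a median of 0.051, inside the span of the insulin libraries (−0.13, 0.046 and 0.086, each against the other insulin libraries).

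In summed level, the members tested came to 11621, 12257 and 16088 CPM in vehicle mice 1, 2 and 3 and to 11790, 11572 and 10691 CPM in insulin mice 1, 2 and 3. Vehicle 1 thus lay between insulin mice 1 and 2, while vehicle 3 held the highest sum and insulin 3 the lowest. Without vehicle 3, the median log2 fold change over the members was −0.047 and 51 of 92 were below 0 (48.5% of all genes), and the medians of complexes I, III and IV turned to 0.069, 0.10 and 0.063, while those of complexes II and V stayed below 0 at −0.16 and −0.22. Without vehicle 2, the median was −0.25 and 82 of 92 were below 0 (47.9% of all genes). With both left out, the insulin mice were set against vehicle 1 alone and the median was −0.042, with 53 of 93 below 0 (46.8% of all genes). This last choice was made after seeing the data, and it assumes that vehicle 1 varies like the insulin mice.

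**Figure D3:**
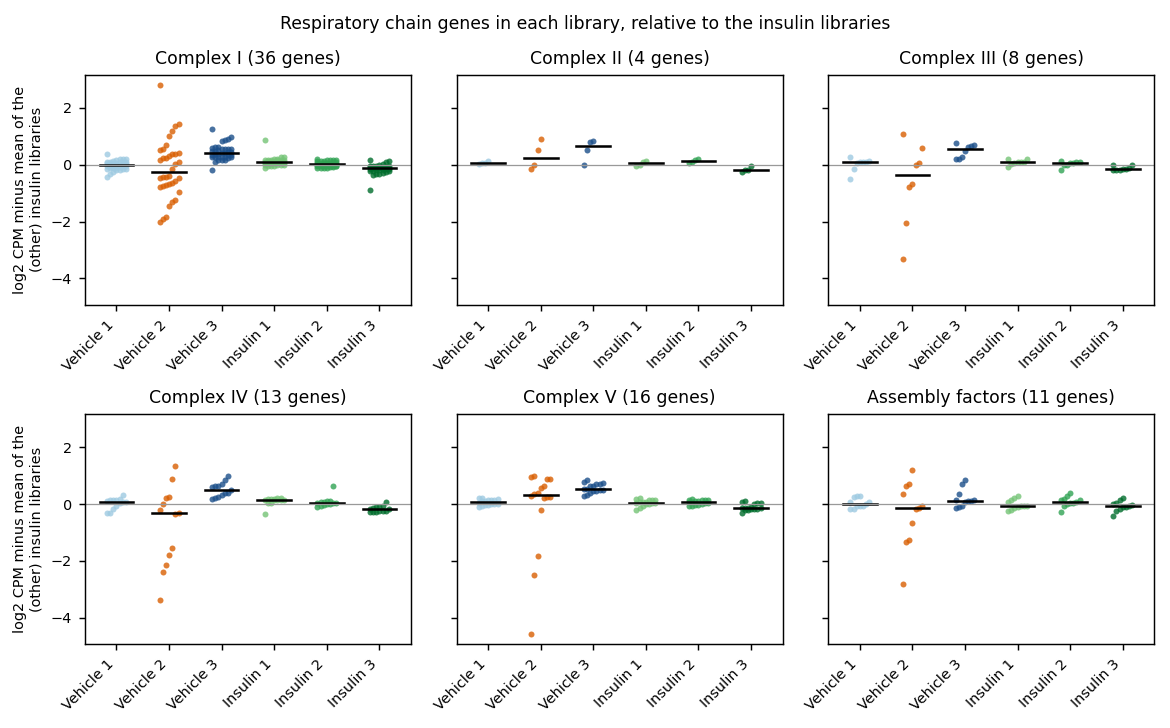
Log2 CPM of each gene tested minus the mean of the insulin libraries (for an insulin library, of the other insulin libraries), by complex and library, with the median as a black line. The median of vehicle 3 lies above 0 in every panel, vehicle 2 is spread to both sides down to −4.56, and vehicle 1 lies near 0.

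Complex I, the NADH dehydrogenase, had 36 subunits tested, 25 with a log2 fold change below 0 and 11 above. Ndufb5, an accessory subunit of the membrane arm (chr3:32736990-32751566, + strand, build 38), had the smallest unadjusted p of all members. It measured 92.4, 185 and 127 CPM in vehicle mice 1, 2 and 3 and 78.8, 77.3 and 60.6 CPM in the insulin mice. Every insulin mouse was below every vehicle mouse. The log2 fold change came to −0.90 ± 0.30 (edgeR, SE, unadjusted p = 0.0164), and to −0.60 without vehicle 2 (unadjusted p = 0.0206). Its interval overlaps Mrpl47 on the opposite strand, and whether counting used strand was not given in the sources used here. Mrpl47 itself measured 18.7, 33.0 and 21.4 CPM in the vehicle mice and 19.1, 17.6 and 17.2 CPM in the insulin mice, well under Ndufb5.

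Ndufb2, also of the membrane arm, met the criteria through vehicle 2. It measured 17.2, 130 and 27.0 CPM in the vehicle mice and 20.8, 17.6 and 17.2 CPM in the insulin mice, so that the groups overlapped and only vehicle 2 stood out. The log2 fold change was −1.65 ± 0.69 (edgeR, unadjusted p = 0.0443), and it was −0.25 without that library (unadjusted p = 0.288). Its gene overlaps Braf on the opposite strand, whose level was also highest in vehicle 2 (19.6, 40.4 and 18.3 CPM in the vehicle mice, 17.4 to 20.9 CPM in the insulin mice, a gene looked at after its values were seen).

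Ndufc1, a small membrane subunit, measured 49.2, 99.8 and 60.4 CPM in the vehicle mice and 42.8, 47.1 and 42.2 CPM in the insulin mice. The groups did not overlap, and the log2 fold change was −0.66 ± 0.29 (edgeR, unadjusted p = 0.0531). Ndufs4, which stabilizes the NADH-binding part, was chosen here after its values were seen: 62.9, 157 and 81.2 CPM in the vehicle mice and 63.1, 57.1 and 55.3 CPM in the insulin mice, with vehicle 2 far above the rest. Ndufa2, the complex I subunit of highest level per kilobase, measured 111, 151 and 140 CPM in the vehicle mice and 123, 117 and 105 CPM in the insulin mice, and the groups overlapped (log2 fold change −0.22 ± 0.22).

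The 7 core subunits of complex I that the nucleus encodes carry the flavin and the iron-sulphur clusters. Their log2 fold changes had a median of −0.24 and were lowest for Ndufs3 (−0.44), and the groups did not overlap for 4 of them (6.04% of all genes), Ndufs1, Ndufs3, Ndufv1 and Ndufv2. Ndufv2 measured 122, 148 and 166 CPM in the vehicle mice and 117, 121 and 104 CPM in the insulin mice, a narrow gap. The 29 accessory subunits had a median of −0.076, with 18 below 0 and 11 above, and the groups did not overlap for 3 of 29 (Ndufab1, Ndufb5 and Ndufc1), which is 10.3% and not far from the 6.04% of all genes. Without vehicle 3 the median was −0.15 for the core and 0.19 for the accessory subunits.

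Complex II, succinate dehydrogenase, also serves the citric acid cycle. All 4 subunits had values below 0. Sdhb, the iron-sulphur subunit (chr4:140961203-140979193, + strand), measured 185, 331 and 311 CPM in the vehicle mice and 187, 182 and 161 CPM in the insulin mice. Vehicle mice 2 and 3 were high, while vehicle 1 lay among the insulin mice. The log2 fold change was −0.64 ± 0.28 (edgeR, unadjusted p = 0.0488), and without vehicle 2 it was −0.48 (unadjusted p = 0.0802) and without vehicle 3 it was −0.54 (unadjusted p = 0.101).

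Sdha, the flavoprotein that oxidizes succinate, measured 421, 579 and 402 CPM in the vehicle mice and 400, 438 and 369 CPM in the insulin mice, with vehicle 2 alone high. Sdhc and Sdhd, the membrane anchors, were highest in vehicle 3: Sdhc measured 132, 108 and 174 CPM in the vehicle mice and 118, 125 and 117 CPM in the insulin mice. Sdhd measured 168, 161 and 296 CPM in the vehicle mice and 173, 176 and 144 CPM in the insulin mice. The groups overlapped for all 3, with log2 fold changes of −0.22 ± 0.25, −0.20 ± 0.24 and −0.34 ± 0.29. For Sdhc and Sdhd the difference was within 0.001 of 0 on the log2 scale without vehicle 3.

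Complex III, the cytochrome bc1 complex, had 8 subunits under the rule, 5 below 0 and 3 above. Uqcrh, the hinge protein that meets cytochrome c1, measured 163, 328 and 236 CPM in the vehicle mice and 162, 159 and 140 CPM in the insulin mice. Vehicle 1 lay just above the highest insulin mouse, and the other vehicle mice lay clearly above (log2 fold change −0.66 ± 0.29, edgeR, unadjusted p = 0.0539). Uqcrfs1, the Rieske iron-sulphur protein, measured 261, 226 and 365 CPM in the vehicle mice and 219, 225 and 202 CPM in the insulin mice. Again the groups did not overlap (log2 fold change −0.40 ± 0.25), and the unadjusted p was 0.153 with all mice and 0.0272 without vehicle 2. Uqcrc2, a core protein, measured 216, 299 and 227 CPM in the vehicle mice and 202, 210 and 182 CPM in the insulin mice (−0.32 ± 0.23), also without overlap.

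Uqcr11 and Uqcrq, small membrane subunits named here after their values were seen, show the other side of vehicle 2. Uqcr11 measured 81.2, 11.5 and 141 CPM in the vehicle mice and 126, 107 and 115 CPM in the insulin mice. Uqcrq measured 372, 99.5 and 584 CPM in the vehicle mice and 438, 416 and 397 CPM in the insulin mice. In both, vehicle 2 was far below every other library and vehicle 3 was the highest, so that the log2 fold changes of 0.57 ± 0.70 and 0.25 ± 0.54 had errors larger than the values. Cyc1, the cytochrome c1 of this complex, lies outside the naming rule. It measured 187, 108 and 331 CPM in the vehicle mice and 201, 185 and 187 CPM in the insulin mice (−0.13 ± 0.38).

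Complex IV, cytochrome c oxidase, had 9 of 13 tested genes below 0. Cox7c, the subunit of smallest unadjusted p, measured 205, 496 and 240 CPM in the vehicle mice and 206, 196 and 179 CPM in the insulin mice. Vehicle 2 was more than 2-fold above the rest and vehicle 1 lay within the insulin range (log2 fold change −0.70 ± 0.35, edgeR, unadjusted p = 0.0849). Cox7a2 measured 192, 331 and 235 CPM in the vehicle mice and 196, 182 and 159 CPM in the insulin mice, with overlap (−0.50 ± 0.27). Cox7a2l measured 96.0, 107 and 150 CPM in the vehicle mice and 98.6, 92.6 and 87.5 CPM in the insulin mice (−0.34 ± 0.24).

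Ndufa4, the member of highest level per kilobase, measured 323, 309 and 483 CPM in the vehicle mice and 342, 323 and 271 CPM in the insulin mice, with vehicle 3 alone above the rest (−0.25 ± 0.26). Cox4i1, a structural subunit that contacts the catalytic core, measured 319, 260 and 592 CPM in the vehicle mice and 337, 334 and 321 CPM in the insulin mice. Only vehicle 3 lay above the insulin mice. Its log2 fold change was −0.24 ± 0.33 with all mice and 0.19 without vehicle 3. Cox8a measured 143, 33.5 and 200 CPM in the vehicle mice and 190, 170 and 167 CPM in the insulin mice, and Cox6a1 measured 249, 81.2 and 338 CPM against 289, 268 and 291 CPM. For these small subunits vehicle 2 was again the lowest and vehicle 3 the highest library, and the log2 fold changes were 0.49 ± 0.54 and 0.34 ± 0.46. Of the 13 genes, vehicle 3 was the highest library for 11 (84.6%, against 23.4% of all genes). Vehicle 2 was the lowest for 8 (61.5%, against 37.4% of all genes). The groups did not overlap for 1 of the 13 (7.69%, near the 6.04% of all genes), Cox6c (270, 281 and 340 CPM in the vehicle mice, 259, 247 and 212 CPM in the insulin mice).

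Complex V had 14 of 16 genes below 0 (51.4% of all genes) and 6 lower with insulin without overlap between the groups (6.04% of all genes): Atp5a1, Atp5c1, Atp5f1, Atp5g3, Atp5j and Atp5l. Its median was the lowest of the 5 complexes with all mice, but not without vehicle 2, where it was −0.33 against −0.41 for complex II and −0.34 for complex IV. It was not the lowest with voom or without vehicle mice 2 and 3 either. Atp5c1, the γ subunit whose turning couples proton flow to ATP synthesis (chr2:10056016-10080510, − strand), measured 244, 391 and 348 CPM in the vehicle mice and 225, 230 and 181 CPM in the insulin mice. All vehicle mice lay above all insulin mice, vehicle 1 narrowly. The log2 fold change was −0.63 ± 0.26 (edgeR, unadjusted p = 0.0419), without vehicle 2 −0.48 (unadjusted p = 0.0592) and without vehicle 3 −0.58 (unadjusted p = 0.0706). Atp5l, the g subunit of the membrane part (chr9:44912557-44920742, − strand), measured 98.9, 170 and 142 CPM in the vehicle mice and 88.3, 93.4 and 80.8 CPM in the insulin mice, again without overlap (−0.65 ± 0.26, unadjusted p = 0.0358). Atp5h, the d subunit of the stalk, measured 110, 222 and 190 CPM in the vehicle mice and 116, 118 and 104 CPM in the insulin mice, with vehicle 1 within the insulin range (−0.63 ± 0.29, unadjusted p = 0.0635).

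The c ring, the rotor of the enzyme, is encoded by 3 genes for the same mature peptide. Atp5g3 was the main one in liver by level per kilobase (445), before Atp5g2 (127) and Atp5g1 (22.2). The transcript lengths taken were 723, 731 and 4715 bases in this order, so the low place of Atp5g1 rests on its length. In CPM without this scaling, Atp5g1 and Atp5g2 were close to each other in the insulin mice. Atp5g3 measured 303, 411 and 389 CPM in the vehicle mice and 284, 285 and 259 CPM in the insulin mice, without overlap (−0.41 ± 0.23). Atp5g1 measured 92.9, 107 and 146 CPM in the vehicle mice and 84.5, 100 and 96.5 CPM in the insulin mice (−0.30 ± 0.24). Atp5g2 measured 102, 18.2 and 126 CPM in the vehicle mice and 114, 99.4 and 97.3 CPM in the insulin mice (0.33 ± 0.58), and vehicle 2 alone was low. In vehicle 2 the 3 genes thus stood at different positions against the other libraries: above the insulin mice for Atp5g3 and Atp5g1 and more than 5-fold below them for Atp5g2.

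Atp5b, the catalytic subunit, was the complex V gene of highest level per kilobase. It measured 891, 796 and 1314 CPM in the vehicle mice and 943, 897 and 938 CPM in the insulin mice, with vehicle 3 alone high (−0.11 ± 0.27). Atp5k, the e subunit of the membrane part, was named after its values were seen as the member with the largest departure of any library. It measured 29.1, 1.17 and 40.9 CPM in the vehicle mice and 27.8, 30.0 and 31.5 CPM in the insulin mice, which is 19 counts in vehicle 2 against 550 to 858 in the others. Atp5o is listed under 2 identifiers, one of them with no count in any library. Usmg5, which encodes a further subunit of this complex under a name outside the rule, measured 130, 138 and 182 CPM in the vehicle mice and 127, 116 and 114 CPM in the insulin mice (−0.33 ± 0.22).

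**Figure D4:**
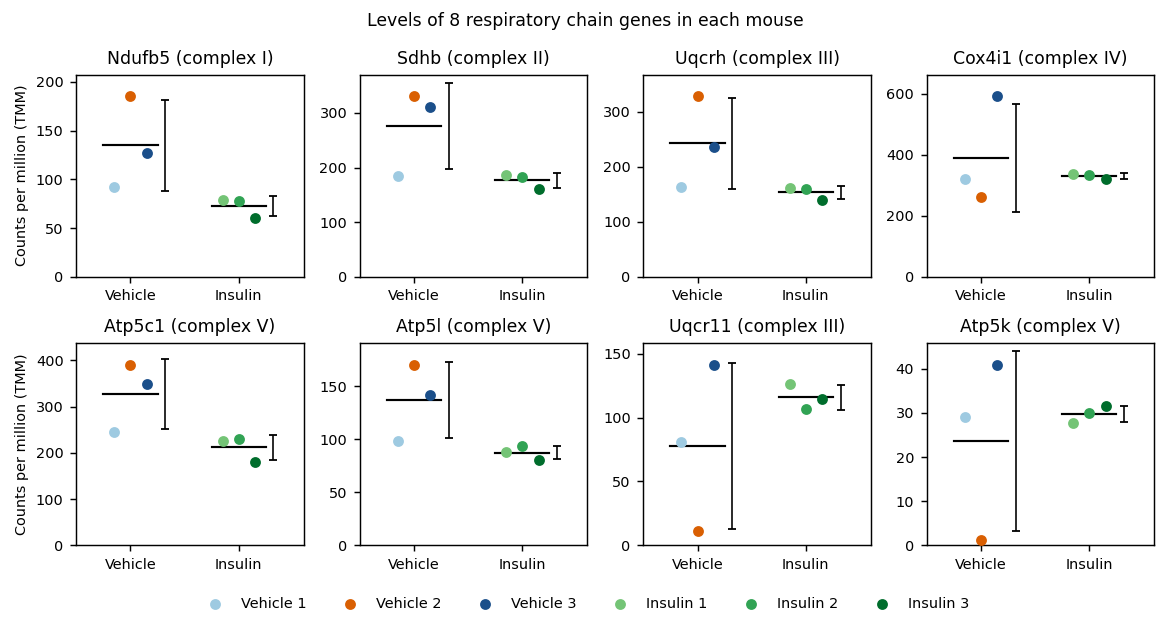
Level in each mouse (TMM-normalized CPM, linear axis from 0) of 8 respiratory chain genes, with the mean of each group as a line and the SD (n = 3) as an error bar beside it. In Ndufb5, Uqcrh, Atp5c1 and Atp5l all insulin mice lie below all vehicle mice, in Sdhb and Cox4i1 vehicle 1 lies among or just below them, and in Uqcr11 and Atp5k vehicle 2 lies far below every other mouse, at 11.5 and 1.17 CPM.

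The assembly factors were split, with 6 of 11 below 0 and 5 above. Ndufaf4, which acts in complex I assembly, measured 34.7, 79.1 and 57.2 CPM in the vehicle mice and 37.0, 30.6 and 37.1 CPM in the insulin mice, with vehicle 1 within the insulin range (log2 fold change −0.71 ± 0.31, edgeR, unadjusted p = 0.0541). Ndufaf6 measured 12.5, 10.1 and 19.2 CPM in the vehicle mice and 9.59, 11.9 and 10.1 CPM in the insulin mice (−0.40 ± 0.29), with vehicle 3 highest. Ndufaf7, a methyltransferase of complex I assembly, measured 13.6, 19.9 and 14.0 CPM in the vehicle mice and 12.6, 13.1 and 13.0 CPM in the insulin mice, without overlap (−0.30 ± 0.24). Uqcc1, Uqcc2 and Uqcc3, which serve the synthesis and assembly of cytochrome b, had values above 0 from 0.067 to 0.34 with all mice. Without vehicle 2 these were −0.16 for Uqcc1, 0.023 for Uqcc2 and −0.071 for Uqcc3. Uqcc2, the factor of highest level per kilobase, measured 15.6, 6.94 and 19.6 CPM in the vehicle mice and 17.4, 18.3 and 17.8 CPM in the insulin mice. In vehicle 3 the assembly factors had a median log2 deviation of 0.12, with 8 of 11 above 0, while the medians of the complexes in that library ran from 0.41 (complex I) to 0.68 (complex II). Whether the assembly factors differ from the subunits was not tested.

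Cox6c2, the last gene to meet the criteria, is annotated as a processed pseudogene on chromosome 12 (56373593 to 56373823), and its reads may be shared with the near-identical parent Cox6c. It measured 2.11, 1.84 and 3.10 CPM in the vehicle mice and 1.13, 1.04 and 0.323 CPM in the insulin mice, or 7 to 65 counts. The groups did not overlap (−1.50 ± 0.53, edgeR, unadjusted p = 0.0219). Ndufb4c, Ndufs6b and Atp5s, the other tested genes only named like a subunit, had unadjusted p values of 0.408, 0.411 and 0.930, and Ndufa11b had no count. Of the rows left out for their -ps ending, Ndufb1-ps carried reads at 31.3, 103 and 34.4 CPM in the vehicle mice and 27.6 to 28.9 CPM in the insulin mice, so that vehicle 2 was again more than 2-fold above the rest.

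The scatter of vehicle 2 among the members ran in part with the base composition of their transcripts. Across the 92 members the log2 deviation of vehicle 2 had a Spearman's rho of −0.48 with the GC content of the longest transcript, with a slope of −1.12 for 10 percentage points. The points share this library, so the value is a description. Over all genes tested rho was −0.68. Atp5k (55.8% GC), Uqcr11 (59.8%), Atp5g2 (63.3%) and Cox8a (58.5%) lay low, while Ndufa13 (60.4%) lay above 0 at 0.43. Cox7c (38.4%), Ndufs4 (43.1%), Ndufaf4 (39.5%) and Ndufb2 (43.7%) lay high, while Uqcrb (40.4%) lay at −0.77. In 10 bins of GC content the members did not always lie with all genes. In the highest bin (57.5% and above, 10 members) the medians were −1.81 for members and −1.48 for all genes, but in the next lower bin (5 members) they were −0.18 and −0.95, and in the bin below that (12 members) −0.063 and −0.63. In the lowest (7 members) they were 0.25 and 0.93, and in the second lowest (4 members) 0.082 and 0.69. For vehicle 3, rho was 0.090. The log2 fold changes of the members had a rho of 0.37 with GC content with all mice and of 0.012 without vehicle 2.

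With an offset for GC content in each library, the median log2 fold change of the members was −0.25, with 70 of 92 below 0 (57.7% of all genes), against −0.061 over all genes with the same offset. Under that offset 18 members met the criteria of the study, all lower with insulin, against 2.83% of all genes, and 5 of the 6 named above were among them; Atp5l was not. Cox4i1, for example, had −0.68 with an unadjusted p of 0.0297. The number of members that met the criteria and were lower with insulin moved with the fit, as did the share of all genes. It was 6 with RLE size factors (2.06% of all genes), 6 without the filter on low counts (1.94%), 9 with DESeq2 (1.62%), 2 with voom (0.785%), 2 with the replicate number as a block (0.882%) and 13 with an offset for GC content and length (2.75%). Leaving out vehicle 1, 2 or 3 gave 16 (5.33%), 6 (2.06%) and 5 (4.86%), leaving out insulin mouse 1, 2 or 3 gave 2 (0.492%), 2 (0.505%) and 0 (0.496%), and leaving out vehicle mice 2 and 3 together gave 0 (0.817%). Without vehicle 3 the share of members was thus 5.43%, near that of all genes. No adjusted p of a member fell below 0.473 under any of the 14 alternatives.

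**Figure D5:**
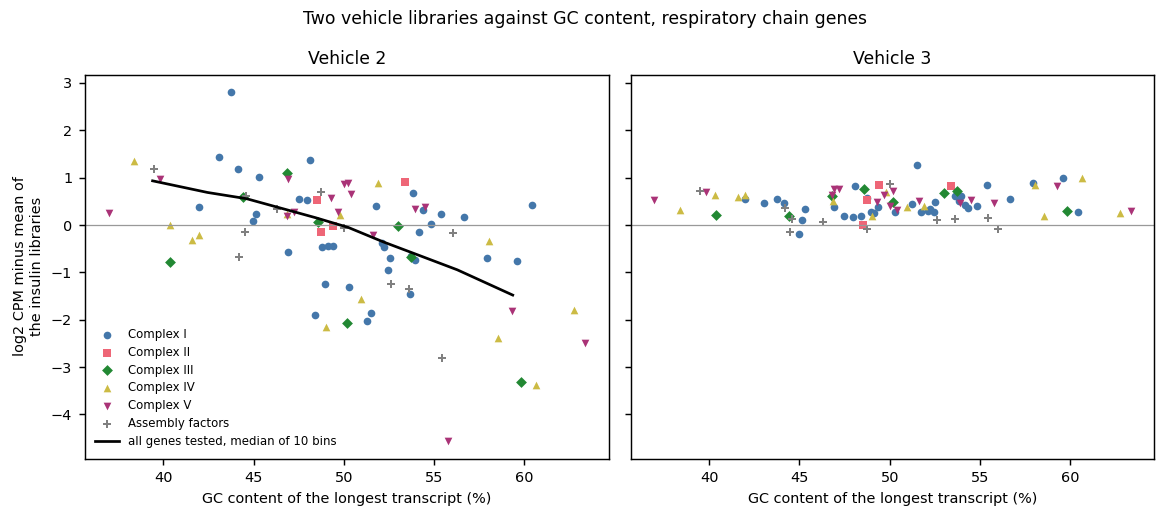
Log2 CPM minus the mean of the insulin libraries against GC content of the longest transcript (%), in vehicle 2 (left) and vehicle 3 (right). Drawn are the members tested of complexes I to V and of the assembly group. The line on the left is the median of all genes tested in 10 bins of GC content. In vehicle 2 the members fall with GC content, with a rho of −0.48 and medians closer to 0 than the line at its lower end. In vehicle 3 they lie mostly above 0 across the range of GC content, with a rho of 0.090. The rho values and medians also cover the genes only named like a subunit, which are not drawn.

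Promoter sequence, which the naming rule did not use, was searched for 3 short words. Nuclear respiratory factor 1 (NRF1), GA-binding protein and YY1 are transcription factors known to bind promoters of respiratory chain genes. Windows from 250 bases before to 50 after the RefSeq start (GRCm38.p6) were found for 77 of 100 member symbols and searched on both strands. The NRF1 word, GCGC followed by any base and TGCGC, was present in 20 of 77 (26.0%), against 5.19% of 27025 genes. The YY1 word AAGATGGC was present in 11 (14.3%), against 3.19%, and the GA-binding protein word CCGGAAGT in 5 (6.49%), against 4.31%. At least 1 of the 3 was in 33 of 77 members (42.9%), against 11.7% of all genes, and the others held none. In complex IV it was 2 of 14 (14.3%), near the share of all genes. By complex, the NRF1 word was in 6 of 13 promoters of complex V, 7 of 32 of complex I and 1 of 14 of complex IV. A match is a description of the letters and not a bound site, and the background was not matched for base composition.

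The 150 bases before the start are shown for 4 genes, all on the − strand and written 5′ to 3′ along the gene, because they hold the NRF1 word while their levels differed between the vehicle mice in different ways. For Atp5c1, RefSeq gives more than 1 start, and the window shown, which reaches into the gene interval given above, was chosen because it holds the word. The 150 bases directly before that interval (chr2:10080511-10080660) hold none of the 3 words. The other windows also reach into their gene intervals, whose upper ends are at 74350280 (Sdha), 115419962 (Atp5h) and 108434448 (Atp5k). The last NRF1 word of Sdha and the GA-binding protein word of Atp5h lie inside these intervals. The NRF1 word of Atp5k lies across the edge of its interval. Capitals mark the NRF1 words and, in Atp5h, the GA-binding protein word as well, read on either strand. They come from chr13:74350241-74350390 (Sdha), chr2:10080433-10080582 (Atp5c1), chr11:115419920-115420069 (Atp5h) and chr5:108434400-108434549 (Atp5k).
Sdha: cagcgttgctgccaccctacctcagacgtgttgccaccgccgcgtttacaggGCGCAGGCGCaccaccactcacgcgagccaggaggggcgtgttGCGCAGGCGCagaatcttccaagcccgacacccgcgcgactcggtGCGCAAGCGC
Atp5c1: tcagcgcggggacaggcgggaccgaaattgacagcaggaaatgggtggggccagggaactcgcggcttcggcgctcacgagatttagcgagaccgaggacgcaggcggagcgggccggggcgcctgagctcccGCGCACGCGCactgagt
Atp5h: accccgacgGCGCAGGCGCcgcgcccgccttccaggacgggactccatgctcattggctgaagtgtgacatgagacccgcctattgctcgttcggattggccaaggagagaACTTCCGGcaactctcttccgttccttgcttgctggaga
Atp5k: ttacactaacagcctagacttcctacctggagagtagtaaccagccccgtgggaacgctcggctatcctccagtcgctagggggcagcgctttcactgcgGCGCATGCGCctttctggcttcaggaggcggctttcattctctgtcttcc
Sdha holds the NRF1 word 3 times in this window. Atp5c1 and Atp5h, with 1 word each, were high in vehicle mice 2 and 3, whereas Atp5k, with 1 word, was at 1.17 CPM in vehicle 2.

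Other genes of the system were read from the same fit, and 0 of them passed at an adjusted p under 0.05. Among 5 tested electron carriers and electron transfer proteins, 3 were below 0, with a median of −0.003. Cycs, cytochrome c itself, measured 103, 57.8 and 144 CPM in the vehicle mice and 125, 102 and 112 CPM in the insulin mice (0.15 ± 0.33). Etfa, an electron transfer flavoprotein subunit that links fatty acid oxidation to the chain, measured 309, 444 and 371 CPM in the vehicle mice and 307, 315 and 275 CPM in the insulin mice (−0.33 ± 0.24). Assembly factors named outside the rule were balanced, with 20 of 41 below 0 and a median of 0.004, and 0 of them met the criteria. The 2 of smallest p, Tmem186 and Coa5, differed by 0.51 ± 0.28 and −0.46 ± 0.26.

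Of 19 tested regulators of mitochondrial genes, 11 were below 0, with a median of −0.21 (−0.053 without vehicle 2), and 0 met the criteria. Ppargc1a, the coactivator PGC-1α that drives mitochondrial gene programmes and is induced by fasting in liver, measured 3.44, 5.03 and 9.44 CPM in the vehicle mice and 4.77, 2.81 and 3.69 CPM in the insulin mice. Vehicle 3 was highest, and the groups overlapped (−0.67 ± 0.43, edgeR, unadjusted p = 0.156). Esrra, a nuclear receptor that works with it, measured 25.6, 2.95 and 72.6 CPM in the vehicle mice and 33.6, 28.5 and 39.9 CPM in the insulin mice, high in vehicle 3 and low in vehicle 2. Nrf1 measured 13.5, 9.33 and 9.44 CPM in the vehicle mice and 12.3 to 13.3 CPM in the insulin mice (0.23 ± 0.24). Gabpa and Tfam, the latter the main packaging and transcription factor of mitochondrial DNA, were highest in vehicle 2 (71.9 and 85.4 CPM) and differed by −0.24 ± 0.24 and −0.35 ± 0.25. Pprc1 and Mterf3, the 2 of smallest p, differed by 0.54 ± 0.29 and −0.45 ± 0.24.

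Among 13 genes of ubiquinone synthesis, 5 were below 0 and 8 above, with a median of 0.005. Coq8b, an atypical kinase of that pathway, measured 35.8, 7.55 and 16.4 CPM in the vehicle mice and 54.3, 38.4 and 81.0 CPM in the insulin mice. Every insulin mouse was above every vehicle mouse (1.54 ± 0.54, edgeR, unadjusted p = 0.0223). Coq10b, which binds ubiquinone, measured 31.5, 68.3 and 34.8 CPM in the vehicle mice and 25.9, 24.2 and 28.1 CPM in the insulin mice, also without overlap (−0.78 ± 0.32, unadjusted p = 0.0425). The 13 protein-coding genes of mitochondrial DNA, which supply the remaining subunits, summed to 38862, 40714 and 40927 CPM in the vehicle mice and to 38210, 37365 and 29040 CPM in the insulin mice. Vehicle 3 did not stand apart in this sum as it did in that of the nuclear genes, and insulin 3 was the lowest library in both. The sum is weighted by mt-Co1, the most abundant of them, with 15461, 21100 and 15734 CPM in vehicle mice 1, 2 and 3. Gene by gene, vehicle 3 was the highest library for mt-Cytb, mt-Nd4, mt-Nd6 and mt-Nd3 and not for the others. Levels of the 13 genes lay far apart. In vehicle mice 1, 2 and 3, mt-Co2 measured 164, 123 and 173 CPM and mt-Atp8 measured 0.476, 0.123 and 1.34 CPM, far below mt-Co1. Whether the reads of these genes were all counted alike was not tested. Over the 13 genes the median log2 fold change was −0.092, with 7 below 0. The 2 of smallest p, both complex I subunits, each rested on a different mouse. mt-Nd3 measured 21.4, 31.9 and 138 CPM in the vehicle mice and 19.9, 22.1 and 14.6 CPM in the insulin mice, with vehicle 3 far above the rest (−1.76 ± 0.66, edgeR, unadjusted p = 0.0284). mt-Nd4l measured 10.5, 9.58 and 11.2 CPM in the vehicle mice and 13.5, 12.4 and 133 CPM in the insulin mice, with insulin 3 far above the rest (2.35 ± 0.89, unadjusted p = 0.0295).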

How the data were processed

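The authors sequenced NEBNext Ultra RNA libraries of whole liver from 6 mice (3 per group) on an Illumina HiSeq and aligned reads to mouse build 38 (mm10) with Bowtie2 2.2.3, per the study's methods and the submitters' processing notes. The deposited table holds raw read counts per Ensembl gene. The counting program, its annotation and its use of strand are not given in the sources used here, so counts of overlapping or near-identical genes are uncertain. An aligner that does not split reads can lose those across exon junctions.

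Counts were fitted with edgeR 4.0.16 (R 4.3.3; TMM, filterByExpr with counts of at least 10 and totals of at least 15, glmQLFit and glmQLFTest, no covariate), with Benjamini-Hochberg adjustment over 13377 genes. SEs came from the F statistic. The biological coefficient of variation was 0.357, and 3 mice per group set the precision. Each library is a separate mouse. CPM are TMM-scaled counts. Log2 deviations used a prior count of 2. Coordinates, GC content and lengths came from GENCODE mouse release 21 (54495 of 54532 identifiers matched), promoters from RefSeq. Alternatives were DESeq2 1.42.0, voom of limma 3.58.1 with sample weights, RLE factors, no filter, a replicate block, GC and length offsets (loess span 0.5) and libraries left out. The scripts were tested on simulated data.

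The genes, the lists and the tests were chosen with earlier results of these data known. Named are the 3 genes of smallest p and the gene of highest level per kilobase in each of complexes I, III, IV and V and the assembly group, all of complex II, every member with an unadjusted p under 0.05, the isoform sets, and the 2 genes of smallest p of each other list with Ppargc1a, Nrf1, Gabpa, Esrra, Tfam, Cycs and Cyc1. Others were named after their values were seen. The values of 1 gene are not reported here, and it is left out of the plot of fold changes.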

Additional observations from a re-analysis of the deposited data

How the results depend on the processing

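The number of members that met the criteria of the study was 6 with all mice (383 of all genes). It was 2 with voom (213 genes) and 2 with the replicate number as a block, 18 with the GC offset, 13 with the GC and length offset, and 1, higher with insulin, with vehicle mice 2 and 3 both left out, where 0 were lower. Without the filter it was 6 (742 genes), with RLE factors 6 and with DESeq2 9. Leaving out 1 mouse at a time gave 0 to 16 members and 99 to 1349 genes: 16 members without vehicle 1 (5.33% of all genes being lower there), 6 without vehicle 2, 5 without vehicle 3, and 2, 2 and 0 without insulin mice 1, 2 and 3. At an adjusted p under 0.05, 0 genes remained in each of these. Why the counts moved was not tested. With vehicle mice 2 and 3 left out, the medians of complexes II and V were −0.059 and −0.053. The members' median stayed below 0 in every alternative.

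Genes named by rule changed sign as follows, none with an adjusted p under 0.05, and the cause was not tested. With vehicle mice 2 and 3 left out, the values were 0.062 for Atp5b, 0.018 for Atp5g1, 0.040 for Atp5h, 0.058 for Cox4i1, −0.15 for Cox6b1, 0.063 for Ndufa2, 0.014 for Ndufaf4, 0.11 for Ndufb2, 0.035 for Cyc1, −0.090 for Nrf1, 0.13 for Ppargc1a and 0.022 for Tfam. With the GC offset they were −0.064 for Atp5g2, −0.17 for Cox6a1, −0.048 for Esrra and 0.017 for Gabpa, and with the GC and length offset −0.094 for Cox6a1, −0.032 for Esrra and 0.035 for Gabpa. With RLE factors Esrra had −0.0032, and with voom Cox6b1 had −0.056. Among other members named, Uqcrq, Atp5k, Uqcc1 and Uqcc3 had −0.19, −0.23, −0.16 and −0.071 without vehicle 2, and Atp5s had 0.17 with the GC offset and 0.14 without vehicle 1. When 1 mouse was left out, Atp5b ran from −0.25 to 0.13, Atp5g2 ran from −0.14 to 0.78, Cox4i1 ran from −0.46 to 0.19, Cox6a1 ran from −0.052 to 0.77, Cox6b1 ran from −0.27 to 0.46, Ndufa4l2 ran from −0.71 to 0.64, Cyc1 ran from −0.44 to 0.37, Cycs ran from −0.12 to 0.49 and Esrra from −0.53 to 1.25.

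Deviations of same-numbered libraries correlated at −0.039, 0.069 and 0.017, and those of differently numbered libraries at −0.11 to 0.089. The values of same-numbered libraries lay within that span, so they cannot tell whether the mice were paired. The block gave 0.26 for Ndufa4l2 and 0.020 for Cyc1, and a median of −0.17 over the members. Low counts stand behind Atp5k in vehicle 2 (19) and Cox6c2 (7 to 65).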
